A study of Homo sapiens with 4 samples.

Results

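The genes described here are the cyclins, cyclin-dependent kinases and kinase inhibitors that govern passage through G1, the phase of the cell cycle before DNA is copied. They are a named list of 10 genes, CCND1, CCND2, CCND3, CCNE1, CDK2, CDK4, CDK6, CDKN1B, CDKN2A and CDKN2B, matched by symbol among the 25411 genes in the deposited tables, and all 10 were found. RNA was sequenced from BEAS-2B, an established human bronchial epithelial cell line, in 2 libraries of cells given 5 µM cadmium chloride for 72 h and 2 control libraries of cells grown for 72 h. All cells were kept in Dulbecco's Modified Eagle's Medium. BEAS-2B is a single line immortalised with a hybrid of adenovirus and SV40, whose large T antigen binds RB1 and p53. The labels put both cadmium libraries under experiment 2 and both controls under experiment 1, so experiment and treatment cannot be told apart. Nothing in the labels says that replicates were separate cultures, and p-values here measure library-to-library spread, part or all of which may be technical.

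D-type cyclins, encoded by CCND1, CCND2 and CCND3, are made in response to growth signals and activate the kinases CDK4 and CDK6. These kinases phosphorylate RB1, which frees E2F transcription factors to switch on CCNE1 and the genes of DNA synthesis, and cyclin E then activates CDK2. INK4 proteins, among them the products of CDKN2A and CDKN2B, bind CDK4 and CDK6 and keep cyclin D away. CDKN1B encodes p27, a CIP/KIP protein that inhibits cyclin E with CDK2. The abundance of several of these proteins is set by degradation as well as by transcript level, and only transcripts were measured here.

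The 2 genes whose transcripts changed, CDKN2A and CDKN2B, are neighbours on chromosome 9 and are read from the same strand. CDKN2A makes p16INK4A and, from a start further upstream with its own first exon, ARF, a protein that stabilises p53. The RefSeq table used here lists a pair of CDKN2A starts without saying which transcript each begins. The 250 bases before each of these and before the CDKN2B start are shown for the arrangement of the locus, 5′ to 3′ on the minus strand, from RefSeq in GRCh38.p14, with GC boxes (GGGCGG on either strand), the letters that SP1 family factors bind, in capitals.
CDKN2A, start nearer the 3′ end of the gene, chr9:21974858-21975107: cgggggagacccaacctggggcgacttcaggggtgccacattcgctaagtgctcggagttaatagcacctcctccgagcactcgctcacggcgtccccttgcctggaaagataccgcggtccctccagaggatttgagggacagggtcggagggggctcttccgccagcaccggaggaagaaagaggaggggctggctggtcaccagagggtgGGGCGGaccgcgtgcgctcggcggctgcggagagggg
CDKN2A, upstream start, chr9:21995325-21995574: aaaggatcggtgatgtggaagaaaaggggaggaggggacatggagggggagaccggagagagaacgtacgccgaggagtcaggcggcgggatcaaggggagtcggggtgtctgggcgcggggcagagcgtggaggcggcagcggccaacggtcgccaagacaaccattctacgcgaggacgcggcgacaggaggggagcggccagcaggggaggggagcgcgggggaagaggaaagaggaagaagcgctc
CDKN2B, chr9:22009306-22009555: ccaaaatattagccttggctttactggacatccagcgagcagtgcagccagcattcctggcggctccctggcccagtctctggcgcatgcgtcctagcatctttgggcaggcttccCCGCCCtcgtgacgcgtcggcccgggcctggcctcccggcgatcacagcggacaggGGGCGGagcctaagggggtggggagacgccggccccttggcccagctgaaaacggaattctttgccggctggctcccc
The window of the CDKN2A start nearer the 3′ end holds 1 GC box, 37 bases before its start, and the CDKN2B window holds 2, at 78 and 134 bases. No GC box is in the window of the upstream CDKN2A start. The CDKN2A gene as counted ends at 21994490 in hg19, another annotation, and may not begin at this upstream start. The window of CDK4 is shown because it carries 3 copies of the E-box CACGTG, the word that MYC with MAX binds, at 101, 196 and 216 bases before the start. E-boxes are in capitals.
CDK4, minus strand, chr12:57752311-57752560: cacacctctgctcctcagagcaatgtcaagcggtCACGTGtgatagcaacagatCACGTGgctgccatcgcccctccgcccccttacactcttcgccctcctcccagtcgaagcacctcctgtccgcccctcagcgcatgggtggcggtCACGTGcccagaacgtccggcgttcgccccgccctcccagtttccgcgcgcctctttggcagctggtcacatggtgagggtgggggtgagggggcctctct
Windows were found for 7 of the 10 genes, 11 windows in all, and none was found for CCND1, CCND2 and CDK2. A GC box stood in 8 of these 11 windows (72.7%), against 42.64% of all 35116 windows of this length. The E-box stood in 1 of 11 (9.1%), against 6.34% of all windows. An E2F word (TTTCGCGC, TTTGGCGC, TTTCCCGC or TTTGCCGC) stood in 0 of 11, against 2.79% of all. The core of the metal response element that MTF1 binds (TGCACNC or TGCGCNC) stood in 3 of 11 (27.3%), against 24.83% of all. Those 3 windows belong to CCND3, CCNE1 and the CDKN2A start nearer the 3′ end. All words were searched on both strands, and 0 matches of different words overlapped. A match is a description of the letters and not a binding site.

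The series' title names the microRNA miR-30e, so the 3′ UTRs of the 10 genes were searched for the word that pairs with its seed. The mature sequence from RefSeq (plus strand, chr1:40754371-40754392, GRCh38.p14) is shown with the seed, bases 2 to 8, in capitals, above the 1 matching stretch found in the longest GENCODE v29 3′ UTR of each gene (GRCh38), with the match to TGTTTAC in capitals.
hsa-miR-30e-5p: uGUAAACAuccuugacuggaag
CDK6 3′ UTR, from transcript sequence: cttctacctggTGTTTACttttgttacct
CDK6 was the 1 gene of the 10 with this word, at base 1319 of a 3′ UTR of 10219 bases. The word was present in 2955 of 19115 genes with a 3′ UTR (15.5%), whose median length was 1083 bases. The CDK6 3′ UTR was the longest of the 10, where the next, that of CCND2, had 5341 bases.

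Reads assigned to genes numbered 29937242 and 15537382 in cadmium replicates 1 and 2, and 26529403 and 8609243 in control replicates 1 and 2, so control replicate 2 was the shallowest. MT2A, a metallothionein gene that cadmium is known to induce, served as a check of exposure and had 7680 and 7000 RPKM with cadmium, against 577 and 786 RPKM in control (log2 fold change 3.40, edgeR adjusted p = 0.000567). RPKM, a read count scaled to gene length and library depth, is used below for levels, since it can be set side by side between genes of different length. Fold changes and tests come from the read counts. In the cadmium and control libraries alike the simple-epithelium keratins KRT8 and KRT18 made up nearly all of the epithelial markers' sum, 434 and 464 RPKM with cadmium against 373 and 461 RPKM in control. The basal-cell marker TP63 had 0 reads in every library, and KRT5 and KRT14 had 1 read each over all libraries. EPCAM had 3.10 and 2.61 RPKM with cadmium and 1.03 and 1.20 RPKM in control. KRT19 and CDH1 had at most 0.139 and 0.174 RPKM in any library. Fibroblast markers summed to 522 and 490 RPKM with cadmium and 669 and 548 RPKM in control, mainly COL1A1. PDGFRB had 29.2 and 31.8 RPKM with cadmium and 24.7 and 28.1 RPKM in control. COL1A2 had at most 0.359 RPKM in any library, and DCN had 0 reads. Leukocyte markers summed to 47.5 and 43.7 RPKM with cadmium and 30.8 and 31.6 RPKM in control, mainly CD68, with CD3E and LYZ at 0. Endothelial markers summed to at most 0.804 RPKM with cadmium and 0.270 RPKM in control, with PECAM1 at 0.

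After 72 h with cadmium, CDKN2B, which encodes the INK4 inhibitor p15, was higher, and its neighbour CDKN2A was lower. The other 7 genes tested did not pass, and CCND2 had no reads. Of the 9 genes past the low-count filter, 1 was higher, where 8.85% of the 13663 genes tested were higher, and 1 was lower, where 7.66% were lower (edgeR quasi-likelihood test, Benjamini-Hochberg adjusted p under 0.05 over all genes tested). A count of 1 in each direction among 9 genes is near those shares. The median log2 fold change of the 9 was -0.23, against 0.002 over all genes tested, and 6 of the 9 were below 0. Both cadmium libraries lay on the same side of both controls for 6 of the 9 genes, CCNE1, CDK2, CDK4, CDKN1B, CDKN2A and CDKN2B, and for 62.1% of all genes tested. In bulk RNA, fewer cells of a kind and less transcript per cell cannot be told apart.

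**Figure D1:**
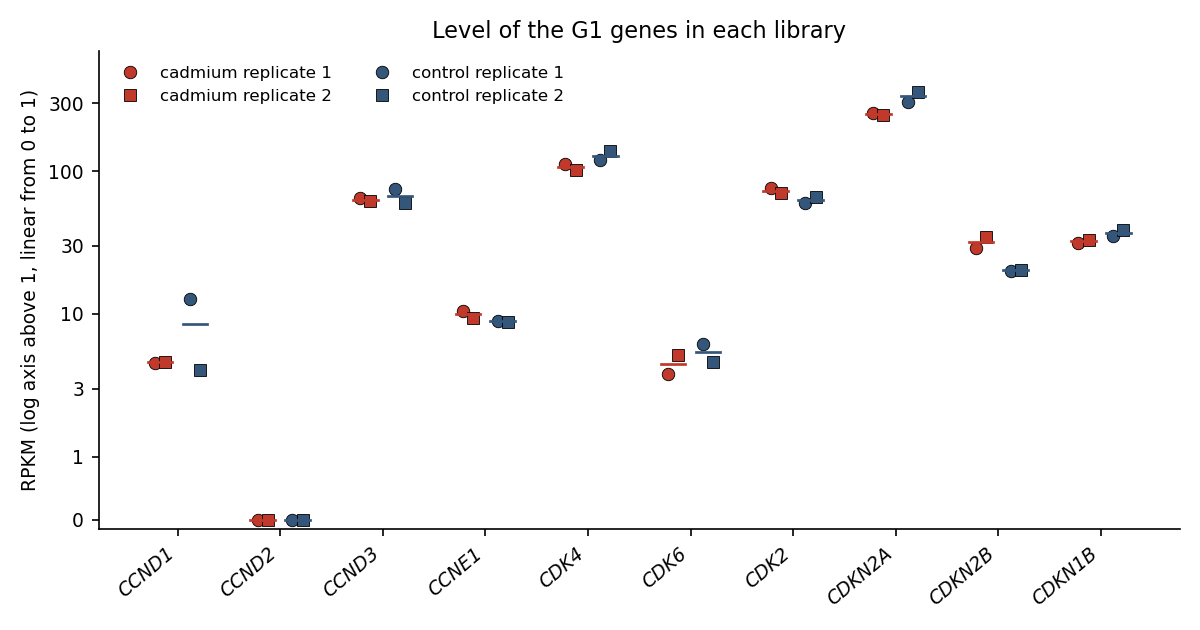
Level of each G1 gene in each library, in RPKM on an axis that is logarithmic above 1 and linear from 0 to 1, with cadmium libraries in red and controls in blue, circles for replicate 1, squares for replicate 2 and a line at each group's mean. CDKN2A is the highest gene in both groups, between 247 and 258 RPKM with cadmium and between 308 and 362 RPKM in control, and CCND1 is the gene whose controls lie farthest apart on the log scale, at 12.8 and 4.08 RPKM.

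By mean RPKM the order from high to low with cadmium was CDKN2A, CDK4, CDK2, CCND3, CDKN1B, CDKN2B, CCNE1, CCND1 and CDK6, with CCND2 at 0. The control order was the same except that CCND3 stood above CDK2. The libraries of CDKN1B and CDKN2B overlapped with cadmium, as did those of CCND1 and CDK6. Those of CCND3 and CDK2 overlapped in control, and CCND1 there overlapped both CCNE1 and CDK6. Every other pair of neighbours in the order was separated in its group. The span between CDKN2A and CDK6 was 252.0 ± 7.84 against 4.45 ± 0.964 RPKM with cadmium and 335.0 ± 38.2 against 5.40 ± 1.08 RPKM in control (SD, n = 2 each).

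Among the D-type cyclins, CCND3 was the most abundant in every library. CCND3 (chr6:41902671-42016632, minus strand, in hg19 as deposited, like all gene positions below) had 64.7 and 61.9 RPKM with cadmium, against 75.3 and 59.6 RPKM in control. Control replicate 1 was the highest and control replicate 2 the lowest of the 4 libraries, so the groups overlapped. Its log2 fold change was -0.13 (SE 0.115, 95% interval -0.394 to 0.131, edgeR adjusted p = 0.461). Without control replicate 1 the value was 0.053 (adjusted p = 0.756), and without control replicate 2 it was -0.285 and passed the threshold (adjusted p = 0.0415).

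CCND1 (chr11:69455873-69469242, plus strand), the cyclin D gene most often tied to growth factor signalling in epithelium, had 4.53 and 4.63 RPKM with cadmium, against 12.8 and 4.08 RPKM in control. In reads these were 665 and 355 with cadmium and 1644 and 169 in control. Control replicate 1 stood above the other 3 libraries, and control replicate 2 lay below both cadmium libraries. The log2 fold change of -0.98 had a 95% interval from -3.06 to 1.11 (SE 0.647, edgeR adjusted p = 0.404), the widest among the 9 genes. It turned to 0.136 without control replicate 1 (adjusted p = 0.589) and went to -1.52 without control replicate 2 (adjusted p = 8.45e-06), so that the sign rested on which control was kept. The authors' deposited table gives CCND1 a log ratio of -0.25 and an adjusted p of 0.490.

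CCND2 (chr12:4382902-4414522, plus strand) had 0 reads in all 4 libraries. A count of 0 allows up to 3 reads, or 0.0980 and 0.190 CPM (reads scaled to library size) with cadmium and 0.115 and 0.356 CPM in control, a limit that covers counting error only. CCND3 thus gave 93.5% and 93.0% of the summed RPKM of the 3 D-type cyclins with cadmium, against 85.4% and 93.6% in control. The share in control replicate 1 was below the other 3, where CCND1 was high. The groups overlapped.

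CCNE1 (chr19:30302901-30315215, plus strand), encoding cyclin E1, had 10.5 and 9.43 RPKM with cadmium, against 8.92 and 8.82 RPKM in control. Both cadmium libraries lay above both controls, by less than the gap between the cadmium libraries at the nearest point. This gave a log2 fold change of 0.14 (SE 0.128, 95% interval -0.150 to 0.434, edgeR adjusted p = 0.475). On a linear scale the interval ran from 0.901 to 1.35 times the control level. The related gene CCNE2 also did not pass, with 8.51 and 8.91 RPKM with cadmium and 10.5 and 9.07 RPKM in control (log2 fold change -0.21, adjusted p = 0.264).

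Of the kinases, CDK4 (chr12:58141510-58146230, minus strand) was the highest, with 112.5 and 102.9 RPKM with cadmium, against 119.9 and 138.0 RPKM in control. Both cadmium libraries were below both controls. The log2 fold change of -0.29 (SE 0.0937, 95% interval -0.502 to -0.0740) missed the threshold after adjustment (edgeR adjusted p = 0.0689, unadjusted p = 0.0144). Of 14 alternative analyses, the crossed replicate block not among them, CDK4 passed when no gene was filtered (adjusted p = 0.0223) and when control replicate 1 was left out (adjusted p = 0.0193). The last 517 bases of CDK4 overlap TSPAN31 on the other strand, which had 808 and 372 reads with cadmium and 515 and 151 in control. CDK4 itself had 7707 and 3679 reads with cadmium and 7170 and 2670 in control.

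CDK6 (chr7:92234235-92465941, minus strand), the partner kinase with the miR-30 word shown above, was a minor transcript. It had 3.77 and 5.13 RPKM with cadmium, against 6.17 and 4.64 RPKM in control. The groups overlapped, since cadmium replicate 2 lay above control replicate 2. The log2 fold change was -0.33 (SE 0.193, 95% interval -0.797 to 0.132, edgeR adjusted p = 0.280), between -0.564 and -0.104 over the same 14 alternative analyses. CDK4 gave 96.8% and 95.3% of the summed RPKM of CDK4 and CDK6 with cadmium, against 95.1% and 96.8% in control.

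CDK2 (chr12:56360553-56366573, plus strand), the kinase of cyclin E and later of cyclin A, had 76.4 and 70.0 RPKM with cadmium, against 60.0 and 65.5 RPKM in control. Both cadmium libraries lay above both controls. For CDK2 the log2 fold change was 0.20 (SE 0.0889, 95% interval 0.001 to 0.408, unadjusted p = 0.0488), and the test did not pass after adjustment (edgeR adjusted p = 0.145) or under any of the 14 alternatives. Its direction was positive in all of them.

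**Figure D2:**
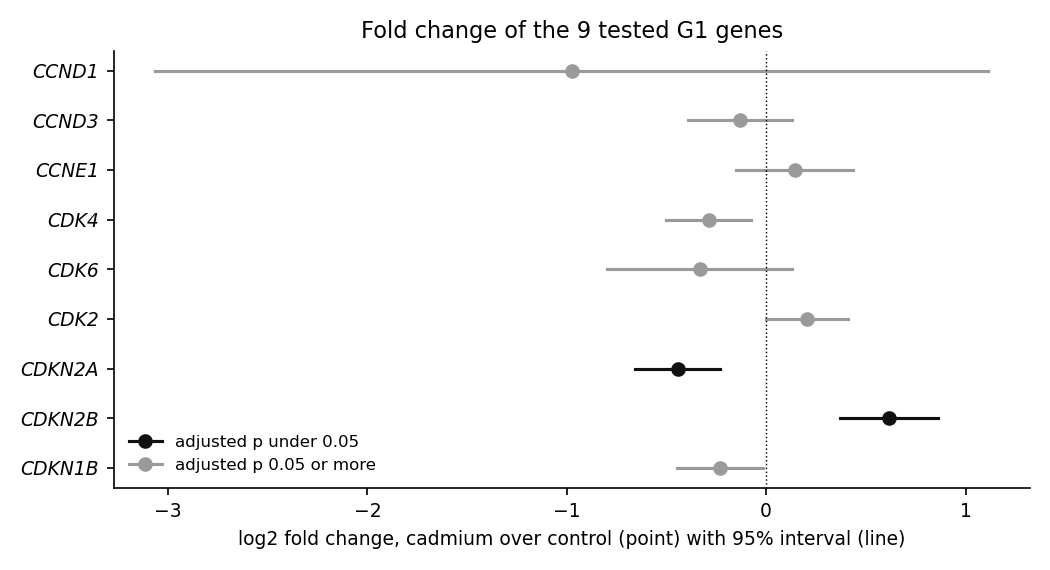
Log2 fold change of the 9 tested G1 genes, cadmium over control, with 95% intervals derived from the edgeR F statistic. Points and lines are black where the adjusted p is under 0.05 and grey otherwise. CDKN2B at 0.62 and CDKN2A at -0.44 pass, and the interval of CCND1 from -3.06 to 1.11 is wider than any other.

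The inhibitor CDKN2B (chr9:22002902-22009312, minus strand) had 28.9 and 34.5 RPKM with cadmium, against 20.1 and 20.4 RPKM in control. Both cadmium libraries were above both controls, and the distance between the groups was larger than the spread within either. It rose by 0.62 on the log2 scale (SE 0.107, 95% interval 0.371 to 0.860, edgeR adjusted p = 0.0107), which is 1.53-fold. The call held in all 14 alternatives, with log2 fold changes from 0.482 to 0.753 and adjusted p from 2.09e-05 to 0.0484. The authors' deposited table gives CDKN2B a log ratio of 0.57 and an adjusted p of 0.000108. p15 is known as an inhibitor that TGF-beta induces in epithelial cells.

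The whole CDKN2B gene, 6411 bases, lies within CDKN2B-AS1 (chr9:21994790-22121093, plus strand), also called ANRIL, an antisense RNA tied to polycomb repression of the locus. How strand was used in counting is not given in the sources used here, so reads from the shared bases cannot be told apart. CDKN2B-AS1 had 85 and 30 reads with cadmium, against 54 and 30 in control, and CDKN2B had 3841 and 2398 with cadmium against 2336 and 766 in control. In RPKM the antisense gene stood at 1.65 and 0.882 with cadmium and 1.36 and 2.42 in control, and the groups overlapped. Its log2 fold change was -0.14 (edgeR adjusted p = 0.816), and the sign turned in 3 of 13 alternatives.

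CDKN2A (chr9:21967751-21994490, minus strand) was the most abundant of the 10 genes, with 257.6 and 246.5 RPKM with cadmium, against 308.0 and 362.1 RPKM in control. Both cadmium libraries lay below both controls, but the gap between the groups was smaller than the distance between the controls. It fell by 0.44 on the log2 scale (SE 0.0931, 95% interval -0.656 to -0.230, edgeR adjusted p = 0.0182), to 0.735 of the control level. The deposited row merges RefSeq transcripts of p16INK4A and of ARF under a single count, so the counts do not separate them. The direction was the same in all 14 alternatives (log2 fold changes -0.555 to -0.325), and the call was lost in 4 of them. These were the fits without cadmium replicate 1 (adjusted p = 0.0545) or cadmium replicate 2 (adjusted p = 0.0790), and those on RPKM with a pseudocount of 0.1 (adjusted p = 0.0506) or 1 (adjusted p = 0.0520). The authors' deposited table gives CDKN2A a log ratio of -0.42 and an adjusted p of 0.00120.

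CDKN1B (chr12:12870204-12875316, plus strand), encoding p27, had 31.3 and 33.2 RPKM with cadmium, against 35.3 and 38.9 RPKM in control. Both cadmium libraries were below both controls by a small margin. The log2 fold change was -0.23 (SE 0.0938, 95% interval -0.447 to -0.0180, unadjusted p = 0.0370). It did not pass after adjustment (edgeR adjusted p = 0.122) or in any of the 14 alternatives.

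**Figure D3:**
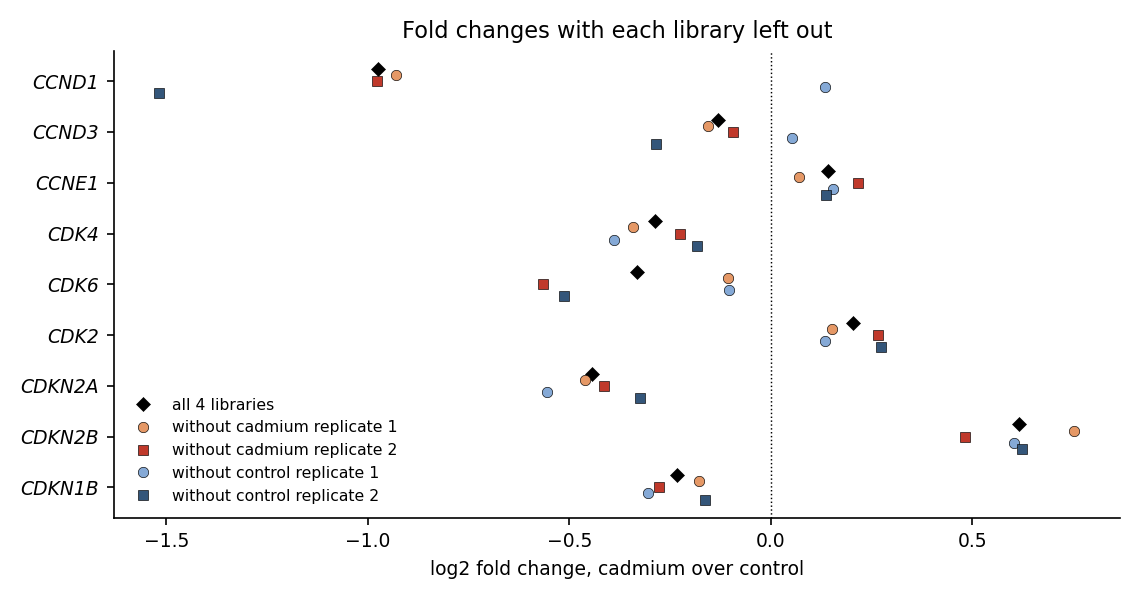
Log2 fold change of the 9 tested G1 genes, cadmium over control, with all libraries (black diamonds) and with each library left out in turn. CDKN2B stays between 0.482 and 0.753 and CDKN2A between -0.555 and -0.325, whereas CCND1 spans -1.52 to 0.136 and CCND3 spans -0.285 to 0.053.

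Ratios of RPKM within a library set these genes against each other and do not depend on scaling between libraries. The ratios were chosen after the values had been seen and are descriptions without a test, since an exact permutation test of 2 libraries against 2 cannot give a two-sided p below 0.333. CDKN2B over CDKN2A was 0.112 and 0.140 with cadmium, against 0.0653 and 0.0565 in control, a difference of 1.04 on the log2 scale. CDKN2A still gave 89.9% and 87.7% of the RPKM of the pair with cadmium, against 93.9% and 94.7% in control. The 2 neighbours moved in opposite directions, and CDKN2A remained the larger in every library, with a margin that depends on the gene lengths behind RPKM. CDKN2A had 10520 and 5264 reads with cadmium and 11038 and 4186 in control. CDKN2B had 3841 and 2398 with cadmium and 2336 and 766 in control. These counts are not scaled to gene length.

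CDK2 over CDK4 was 0.679 and 0.681 with cadmium, against 0.5002 and 0.475 in control (log2 difference 0.48). CDKN1B over CDK2, an inhibitor over its target kinase, was 0.409 and 0.474 with cadmium, against 0.589 and 0.594 in control (log2 difference -0.43). In both ratios the groups did not overlap. This follows from the single genes, since both cadmium libraries lay above both controls for CDK2 and below them for CDK4 and CDKN1B. None of CDK2, CDK4 and CDKN1B passed the test on its own. CCNE1 over CDK2, a cyclin over its kinase, was 0.138 and 0.135 with cadmium and 0.149 and 0.135 in control, and the groups overlapped. CDK6 over CDK4 overlapped as well, at 0.0335 and 0.0499 with cadmium and 0.0515 and 0.0336 in control.

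**Figure D4:**
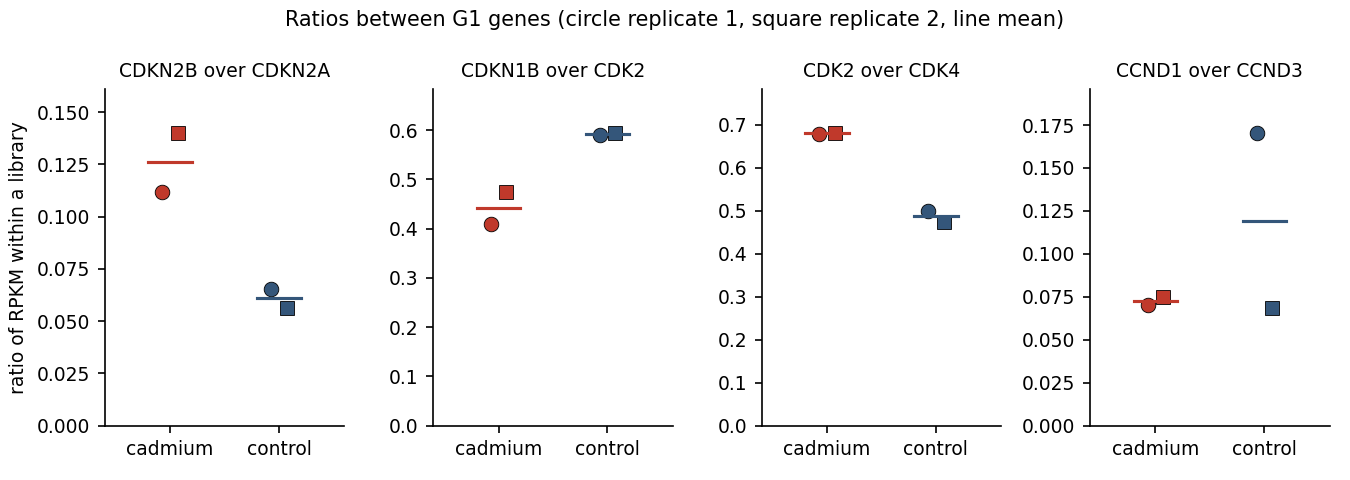
Ratio of RPKM between pairs of G1 genes within each library, with circles for replicate 1, squares for replicate 2 and lines at group means, on axes that start at 0. CDKN2B over CDKN2A averages 0.126 with cadmium and 0.0609 in control, and CCND1 over CCND3 overlaps because control replicate 2, at 0.0684, lies below both cadmium libraries.

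Other regulators of the passage from G1 to S were counted next, from a list of 24 genes of which 23 were tested. One inhibitor, CDKN1C, was higher, and CDKN2C, CCNA2 and E2F4 were lower. The other 19 did not pass. Over all genes tested 8.85% were higher and 7.66% lower, and the median log2 fold change of the 23 was -0.11. CDKN1C, which encodes the CIP/KIP inhibitor p57, had 3.68 and 3.61 RPKM with cadmium, against 0.536 and 0.705 RPKM in control. It rose by 2.72 on the log2 scale (SE 0.260, edgeR adjusted p = 0.00234), with 222 and 113 reads with cadmium and 27 and 10 in control. On the log2(RPKM + 1) scale, where low levels are compressed, the difference was 1.52. The authors' deposited table gives a log ratio of 1.497, and how that ratio was computed is not stated in the sources used here.

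CDKN2C, which encodes the INK4 protein p18, had 45.3 and 38.1 RPKM with cadmium, against 72.1 and 69.6 RPKM in control. It fell by 0.82 on the log2 scale (SE 0.0997, edgeR adjusted p = 0.00424). CDKN1C and CDKN2C passed in all 14 alternatives. Of the 4 INK4 genes, CDKN2B was thus higher, CDKN2A and CDKN2C were lower, and CDKN2D did not pass (36.8 and 28.2 RPKM with cadmium, 34.6 and 35.1 RPKM in control, adjusted p = 0.593). The INK4 family did not move in 1 direction, though the CDKN2A call was lost in 4 of 14 alternatives. Shares over all genes tested were 8.85% higher and 7.66% lower.

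Of the CIP/KIP genes, CDKN1C was higher and CDKN1B and CDKN1A did not pass, against 8.85% higher over all genes tested. CDKN1A, which encodes the p53-induced inhibitor p21, had 82.6 and 51.9 RPKM with cadmium, against 123.6 and 69.2 RPKM in control. Its replicates differed widely in both groups, which overlapped, and the log2 fold change was -0.56 (SE 0.431, edgeR adjusted p = 0.464). It was between -0.92 and -0.069 when 1 library was left out, nearest to 0 without control replicate 1. CCNA2, the cyclin A that takes over CDK2 in S phase, fell by 0.50 (log2 scale, adjusted p = 0.0158), and the repressive E2F gene E2F4 fell by 0.36 (adjusted p = 0.0334). CCNA2 missed the threshold without cadmium replicate 1 (adjusted p = 0.0588) and without cadmium replicate 2 (adjusted p = 0.0625), and E2F4 passed in 6 of 14 alternatives. RB1 had 15.6 and 18.2 RPKM with cadmium and 16.6 and 13.3 RPKM in control (adjusted p = 0.503). CCNE2, CDKN2D and RB1 were picked by their function after the values had been seen.

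**Figure D5:**
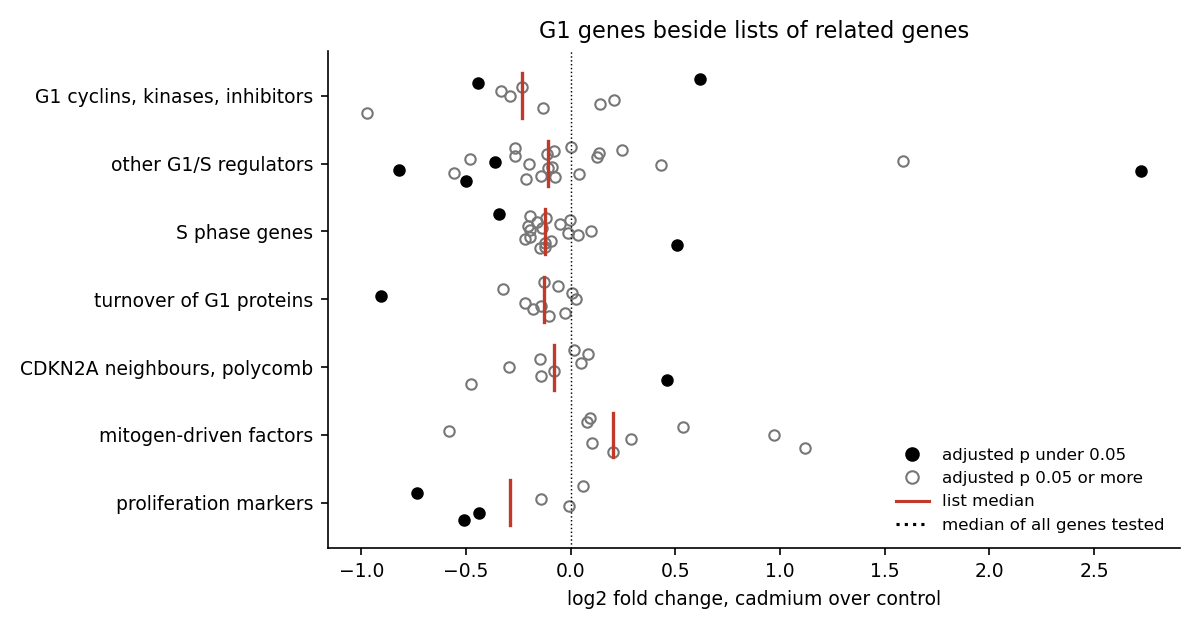
Log2 fold change, cadmium over control, of each tested gene in the G1 list and in 6 lists of related genes, filled where the adjusted p is under 0.05, with red lines at list medians and a dotted line at the median of all genes tested. CDKN1C at 2.72 lies apart from every other gene shown, and the proliferation markers have 3 of 6 genes lower.

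S phase genes that E2F factors activate were counted in the same way. Of 19 tested, 1 was higher, 1 was lower and 17 did not pass. The share called was no larger than over all genes tested (8.85% higher and 7.66% lower). The median log2 fold change was -0.12, and 16 of the 19 were below 0, against 6801 of all 13663 genes tested. CDT1, which loads the replicative helicase, had 58.9 and 45.6 RPKM with cadmium, against 36.2 and 35.8 RPKM in control, and rose by 0.51 (edgeR adjusted p = 0.0258). TYMS, encoding thymidylate synthase, fell by 0.34 (log2 scale, adjusted p = 0.0490), a call lost in 8 of 14 alternatives, among them the fits without cadmium replicate 1, cadmium replicate 2 or control replicate 1 (adjusted p from 0.104 to 0.260). CDT1 lost its call without cadmium replicate 1 (adjusted p = 0.198) or control replicate 1 (adjusted p = 0.0521).

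Genes for ubiquitin-driven turnover of G1 proteins had 1 lower among 11 tested and 10 that did not pass. This stood against 7.66% lower over all genes tested, with a median of -0.13. DESeq2 called 1 of the 11 lower and limma-voom called 2. FBXO4, an F-box protein reported to target cyclin D1, had 2.55 and 2.29 RPKM with cadmium, against 4.23 and 4.61 RPKM in control, and fell by 0.91 on the log2 scale (edgeR adjusted p = 0.0239). Without cadmium replicate 1 (adjusted p = 0.113) or cadmium replicate 2 (adjusted p = 0.164) the call was lost. SKP2, the F-box protein that targets p27, had 24.1 and 23.4 RPKM with cadmium and 23.1 and 26.6 RPKM in control (adjusted p = 0.388). It was chosen after its values were seen.

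Of 9 genes beside the CDKN2A locus or encoding its polycomb repressors, CBX7 was higher and 8 did not pass, against 8.85% higher over all genes tested, with a median of -0.078. DESeq2 and limma-voom each called 1 of the 9 lower, BMI1, a polycomb gene whose edgeR adjusted p was 0.0503. CBX7, a polycomb subunit known to repress CDKN2A, had 13.9 and 11.8 RPKM with cadmium, against 8.34 and 10.1 RPKM in control (log2 fold change 0.46, edgeR adjusted p = 0.0450). The call was lost in 7 of 14 alternatives, among them the fits without cadmium replicate 1, cadmium replicate 2 or control replicate 1 (adjusted p from 0.0550 to 0.280).

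Of 9 transcription factors that carry growth signals to the cyclin D genes, 0 passed with edgeR. Over all genes tested 8.85% were higher and 7.66% lower. An unadjusted p under 0.05 was found for 1 of them, and DESeq2 and limma-voom also called 0. The 2 with the smallest p were ETS2 (log2 fold change 0.29, adjusted p = 0.120) and CREB1 (0.20, adjusted p = 0.325), and the median of the list was 0.20. FOSL1, an AP-1 subunit, had 46.1 and 47.4 RPKM with cadmium, against 95.7 and 39.1 RPKM in control, and was picked after its values were seen because control replicate 1 stood apart there as it did for CCND1.

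Proliferation markers outside G1 had 3 lower among 6 tested and 3 that did not pass, against 7.66% lower over all genes tested, with a median of -0.29. PLK1, a mitotic kinase, had 119.7 and 114.2 RPKM with cadmium, against 194.5 and 186.1 RPKM in control, and fell by 0.73 on the log2 scale (edgeR adjusted p = 0.00307). The mitotic cyclins CCNB1 and CCNB2 fell by 0.51 (adjusted p = 0.00926) and 0.44 (adjusted p = 0.0146). CCNB2 missed the threshold without cadmium replicate 1 (adjusted p = 0.0716) and without cadmium replicate 2 (adjusted p = 0.110). MKI67, TOP2A and CDK1 did not pass.

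Nuclear-retained RNAs, a sign of RNA quality, moved with the groups. MALAT1 and NEAT1 summed to 247.6 and 252.3 RPKM with cadmium, against 138.8 and 177.5 RPKM in control, and both rose (log2 fold changes 0.87 and 0.59, edgeR adjusted p = 0.00188 and 0.0228). Their part in the changes of CDKN2B, CDKN2A, CDKN1C and CDKN2C was not tested. Of the marker lists given above, 2 of 5 tested epithelial genes (KRT15 and EPCAM) and 1 of 2 leukocyte genes (CD68) were higher. The 1 endothelial gene tested (TIE1) was also higher, and 0 of 3 fibroblast genes were. Over all genes tested 8.85% were higher. The remaining markers tested did not pass. KRT15 had 31 and 11 reads with cadmium and 4 and 1 in control, and TIE1 had 101 and 42 with cadmium and 27 and 6 in control. DESeq2 called 1 of the 5 epithelial genes higher and 1 of the 3 fibroblast genes lower. The part of these markers was not tested either.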

How the data were processed

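Per the submitters' processing notes, STAR 2.4, DESeq2 and DESeq were used with hg19, with no role stated. The counter and its strand setting are not stated in the sources used here. For each library the authors deposited raw read counts by RefSeq gene and RPKM. They also deposited a comparison table with mean RPKM, a log ratio read here as log2, and raw and adjusted p-values. How the log ratio was computed is not stated in the sources used here. It was smaller in size than the edgeR log2 fold change for CCND1 (-0.25 against -0.98) and CDKN1C (1.497 against 2.72). Per the labels, column-purified total RNA went into TruSeq RNA libraries. Tables were joined by RefSeq identifier.

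Counts were filtered with filterByExpr, which left 13663 of 25411 genes, scaled with TMM and tested with edgeR 4.0.16 (R 4.3.3, robust quasi-likelihood F test, Benjamini-Hochberg over all genes tested, threshold 0.05). SEs come from the F statistic. The procedure was also run on counts simulated from its own fitted dispersions, a run that cannot vouch for the calls made here. RPKM was used as deposited. Alternatives were DESeq2 1.42.0, its size factors, limma-voom (limma 3.58.1), library size alone, no filter, at least 5 CPM in 2 libraries, log2 of RPKM with a pseudocount of 0.1 or 1 tested with limma, counts thinned to equal depth, a replicate block and leaving out each library. Reads assigned ranged from 8609243 to 29937242. Libraries of 1 group differed by more than sampling noise (chi-square per gene 7.72 within cadmium and 11.8 within control), so all 4 were kept.

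The 10 genes and all lists were chosen with earlier results of these data known. Named were all 10 genes, CDKN2B-AS1, CDKN1A, MT2A, and from each list up to 4 genes past the threshold with the largest change, or, where none passed, the 2 of smallest p.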

Additional observations from a re-analysis of the deposited data

How the results depend on the processing

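The 9 tested G1 genes had 135 alternative values, here with the crossed replicate block described below included. Of these, 123 kept their direction and side of the threshold, 6 newly passed, 4 no longer passed and 2 turned sign. CDK4 and CDK6 with the crossed replicate block are among the 6. CDKN2B was the 1 higher G1 gene in every analysis. Lower G1 genes numbered 0 on log2 RPKM with either pseudocount and 2 with no filter. Leaving out 1 library gave 0 to 3 of them, with 0 without either cadmium library, 2 without control replicate 1 and 3 without control replicate 2. CCND1 then spanned -1.52 to 0.136, CCND3 -0.285 to 0.053 and CDKN2B-AS1 -0.566 to 0.212, which was 0.048 with counts thinned to equal depth. Other G1/S regulators had 2 higher with limma-voom and with no filter, and 1 to 3 higher and 1 to 5 lower when 1 library was left out. S phase genes had 0 higher on log2 RPKM, and 0 lower there, with DESeq2 size factors, with at least 5 CPM and with library size alone. Leaving out 1 library gave 0 to 1 in each direction.

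Over all genes 1209 were higher and 1046 lower. Log2 RPKM gave 719 higher with a pseudocount of 0.1 and 777 with 1, and 554 lower with either. Library size alone gave 1445 higher and 682 lower, 67.9% of calls higher against 53.6%, and moved the median of all genes to 0.06. Without cadmium replicate 1, 395 were higher and 252 lower, without cadmium replicate 2, 554 and 250, and without control replicate 2, 1933 and 1597. A lone library of a group is assumed to vary like the other group. The causes of these differences were not tested.

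Same-numbered libraries did not deviate together (correlation -0.186), so the replicate numbers were not taken as pairs. With a replicate block 1073 genes were higher and 811 lower, and the G1 counts stayed at 1 higher and 1 lower. The replicate block brought CDKN1A past the threshold (-0.53, adjusted p = 0.00309) and CBX7 and E2F4 lost their calls. With the crossed replicate block, added after seeing the data, 1551 genes were higher and 1471 lower, 3 G1 genes (CDKN2A, CDK4 and CDK6) were lower and 2 other G1/S regulators were higher.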

Other observations

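Among other G1/S regulators outside the named genes, TFDP1, the dimer partner of the E2F factors, had 74.2 and 77.7 RPKM with cadmium, against 90.8 and 87.5 RPKM in control, and lay just outside the threshold (log2 fold change -0.26, edgeR adjusted p = 0.0533). E2F2, an activating E2F gene, had 5.998 and 5.29 RPKM with cadmium, against 3.65 and 4.72 RPKM in control (log2 fold change 0.43, adjusted p = 0.0795). BMI1, a polycomb gene known to repress CDKN2A, had 11.2 and 9.83 RPKM with cadmium, against 16.1 and 12.4 RPKM in control (log2 fold change -0.48, adjusted p = 0.0503), and EZH2 had 20.6 and 19.4 RPKM with cadmium, against 23.94 and 23.99 RPKM in control (log2 fold change -0.29, adjusted p = 0.0604). None of these 4 passed with edgeR. BMI1 passed with DESeq2 (adjusted p = 0.0362) and with limma-voom (adjusted p = 0.0355), and E2F2 (adjusted p = 0.0401) and TFDP1 (adjusted p = 0.0408) passed with limma-voom. All 4 were picked after their values were seen.

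Control replicate 2 was low for several immediate early genes. EGR1 had 79.9 and 61.6 RPKM with cadmium, against 53.3 and 8.45 RPKM in control, and FOS had 10.7 and 7.01 RPKM with cadmium, against 6.95 and 0.911 RPKM in control. Neither passed (edgeR adjusted p = 0.579 and 0.566). CCND1 was also lowest in control replicate 2, but by little, at 4.08 RPKM against 4.53 and 4.63 RPKM with cadmium. The library that stood apart for CCND1 was control replicate 1, at 12.8 RPKM.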
